A study of Homo sapiens with 4 samples.

Results

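The genes described here make or load the MHC class I molecule: the heavy chain genes HLA-B, HLA-C and HLA-E, the light chain gene B2M, the peptide transporter genes TAP1 and TAP2, and the immunoproteasome subunits PSMB8, PSMB9 and PSMB10. They were chosen by symbol from a fixed list, drawn up with earlier results of these data known. All 9 were found among the 23394 genes of the count table and among the 13915 genes tested. RNA came from SUM159, a triple-negative breast cancer line of mesenchymal character, grown in F12 medium with 5% fetal bovine serum, insulin and hydrocortisone in every group. The 2 control libraries came from cells given DMSO. The 2 knockdown libraries came from cells given doxycycline, which switched on a small interfering RNA against SHARP, a name for the corepressor SPEN that binds RNA and the Notch effector RBPJ. No control cells given doxycycline were among the libraries, so the effect of the drug and that of the knockdown cannot be told apart. The sources used here do not say whether the cells were 1 clone, how long they were treated, or whether the libraries of a group were separate cultures. All p-values therefore rest on the spread between the libraries of a group, and that spread may be technical.

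Class I molecules show fragments of a cell's own proteins to CD8 T cells. Proteasomes cut the proteins, and in cells that meet interferon gamma the catalytic subunits PSMB8, PSMB9 and PSMB10 replace PSMB5, PSMB6 and PSMB7, which changes the peptides made. The TAP1 and TAP2 chains together pump peptides into the endoplasmic reticulum, where the bridging protein tapasin holds the transporter beside empty class I molecules, and a filled complex of heavy chain and beta-2-microglobulin then travels to the surface. HLA-E is a less polymorphic class I chain that presents leader peptides of other class I chains to the NKG2A receptor of natural killer cells. Transcription of these genes is driven by NF-kB, by interferon regulatory factors and by the NLRC5 coactivator acting through RFX, CREB and NF-Y at the promoter, and breast cancers can lose any of these steps.

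SPEN fell from 185 ± 1.84 to 108 ± 0.443 CPM (the count of a gene relative to the TMM-scaled total of its library), given throughout as mean ± SD of 2 libraries. Its log2 fold change, always knockdown over control, was -0.78, and its adjusted p was 1.39e-10 in edgeR's quasi-likelihood test, adjusted over all tested genes and called at 0.05. Libraries held 15641296 to 17197715 counts, and the 9 genes took 0.178% and 0.182% of them in the controls against 0.198% in each knockdown library. The replicates of a group differed by little, with a biological coefficient of variation of 2.69%, so the test called 50.1% of all tested genes, 25.1% higher and 24.9% lower, and small changes passed it. Markers of leukocytes, which carry much class I themselves, were scarce: CD3D, CD2, MS4A1 and TYROBP had 0 counts in all 4 libraries and PTPRC had 4 to 9. The 17 leukocyte genes summed to 198 and 194 CPM in the controls against 111 and 109 CPM in the knockdown, nearly all of it LAPTM5, a lysosomal membrane protein, and to 11.3 to 16.3 CPM without it. The 8 markers of mesenchymal-like breast lines summed to 6942 and 6931 CPM in the controls and to 9375 and 9314 CPM in the knockdown, and the 9 epithelial markers to 313 and 326 CPM against 338 and 343 CPM. Of the epithelial markers, CDH1 and KRT19 had 0 counts, and KRT18 stood at 184 and 182 CPM and was not called. KRT8 rose from 121 ± 7.62 to 148 ± 4.77 CPM, whereas GATA3 fell from 12.5 ± 0.399 to 8.26 ± 0.0329 CPM, and both were called. The part of these shifts in the class I values was not tested.

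The start sites of these genes carry elements that the factors named above read. Short promoter stretches are shown because the results below set genes with such elements beside each other. They come from RefSeq's GRCh38.p14 promoters, which is not the GRCh37 build of the counts, with 10 entries for 8 of the 9 genes and none for HLA-E. The first set shows the kappa-B consensus, the element bound by NF-kB, in capitals, read 5′ to 3′ on the gene's own strand. On that strand the letters of B2M match in the opposite orientation. The stretches lie at chr6:31357337-31357366 for HLA-B, chr6:31272246-31272275 for HLA-C, chr6:32853757-32853786 for TAP1 and chr6:33314115-33314144 for the tapasin gene TAPBP, all on the minus strand, and at chr15:44711382-44711411 on the plus strand for B2M.
HLA-B: gcgcagcgttGGGGATTCCCCactcccctg
HLA-C: gcgccgcgttgGGGATTCTCCactcccctg
TAP1: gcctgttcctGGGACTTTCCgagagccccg
TAPBP: taaccagagcGGGGATTTCCaccgcccctc
B2M: actgaaaacgGGAAAGTCCCtctctctaac
HLA-B and HLA-C had 28 of 30 bases in common, with the substitutions A5C and C19T, HLA-B base first and positions counted from 1 at the 5′ end. The second set shows the core of the interferon-stimulated response element, GAAANNGAA on either strand, in capitals, where overlapping matches run together. It lies at chr6:32853818-32853847 for TAP1, chr6:32838778-32838807 for TAP2, chr6:33314079-33314108 for TAPBP and chr16:67936852-67936881 for PSMB10, on the minus strand, and at chr15:44711363-44711392 on the plus strand for B2M.
TAP1: ggcggccgctTTCGATTTCGCTTTCcccta
B2M: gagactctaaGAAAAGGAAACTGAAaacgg
TAP2: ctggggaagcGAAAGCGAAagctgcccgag
PSMB10: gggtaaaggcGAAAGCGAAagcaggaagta
TAPBP: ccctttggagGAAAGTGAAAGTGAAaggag
In the 250 bases before the start, on both strands, the kappa-B consensus was found in HLA-B, HLA-C, B2M and TAP1 and in 5.21% of 35116 promoters. The GAAANNGAA core was found in B2M, TAP1, TAP2 and PSMB10 and in 6.88% of promoters. TTCNNNGAA, the gamma-activated sequence, was found in TAP1 and PSMB8 (6.57% of promoters). The box CCAAT, read by NF-Y, was found in 5 of the genes (32.0%), TGACG, the core read by CREB, in 6 (21.2%), and TGGGAA, the letters read by RBPJ, in HLA-B, HLA-C, TAP1 and PSMB9 (20.9%). The TGGGAA and TTCNNNGAA matches of TAP1 overlap in 1 of its entries. The CCAAT matches of TAP1 and PSMB9 are the same bases read from opposite strands, so 1 box counts for both genes. A gene counts here if any of its entries matched, whereas the percentages count entries, so a gene with more than 1 entry had more chances. For each element, as many of the 10 entries matched as genes. A match is a run of letters and not a measured site.

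Across the 9 genes, 5 were called higher in the knockdown (HLA-B, HLA-E, TAP1, TAP2 and PSMB9), 0 were called lower and 4 were not called (HLA-C, B2M, PSMB8 and PSMB10). That is 55.6% called higher, beside 25.1% of all tested genes. Because the 9 genes were chosen with earlier results of these data known, this share describes them and is no test of the set. The median log2 fold change was 0.26, beside 0.0012 over all tested genes. In 7 of the 9, or 77.8%, the values of the groups did not overlap, which was also so in 74.3% of all tested genes. Against a fold of 1.2 in place of no change (edgeR's glmTreat), TAP1 and HLA-E were still called, and HLA-B (adjusted p 0.592), TAP2 (0.648) and PSMB9 (0.602) were not. The changes were moderate beside the rest of the table: 10.7% of tested genes changed by at least as much as TAP1, 19.4% as much as HLA-E, and 41.7% to 42.5% as much as PSMB9, HLA-B and TAP2.

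**Figure D1:**
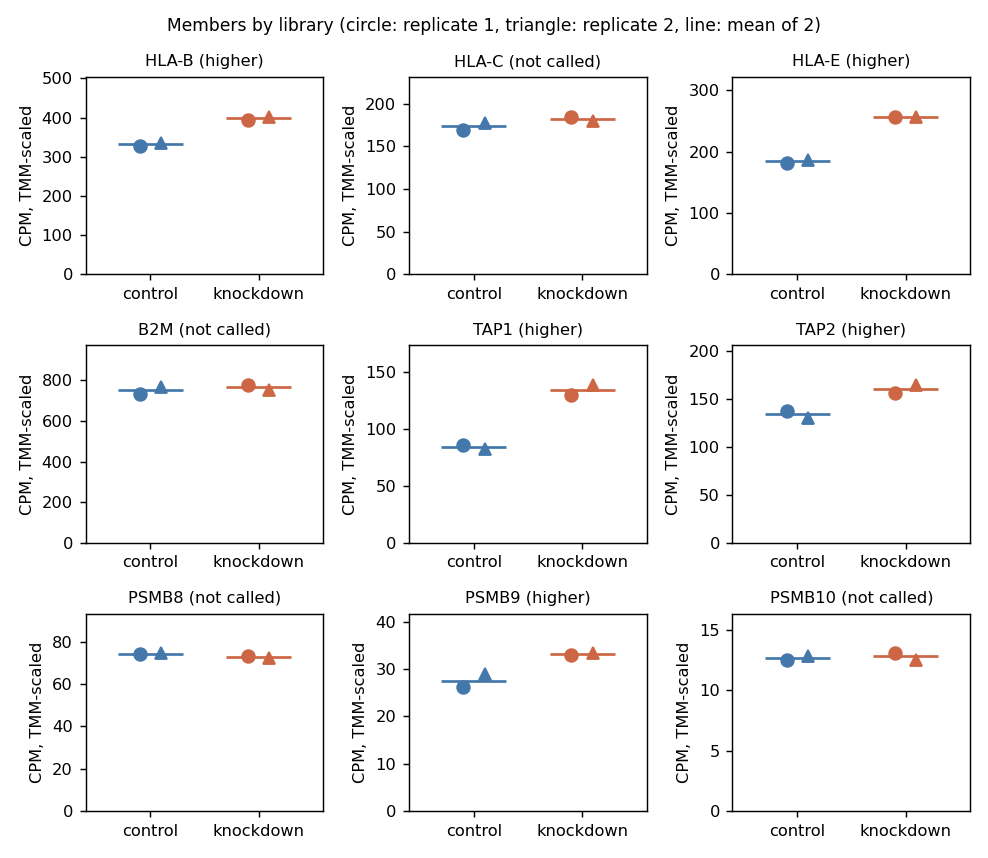
Level of each of the 9 genes in every library, in TMM-scaled CPM on axes that start at 0, with the control libraries left, the knockdown libraries right, circles for replicate 1, triangles for replicate 2 and a line at the mean of 2. HLA-B, HLA-E, TAP1, TAP2 and PSMB9 show separated groups and passed the test, whereas HLA-C, B2M, PSMB8 and PSMB10 did not pass it.

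Among the heavy chains, HLA-E rose most. It stood at 182 and 186 CPM in the control libraries and at 257 CPM in both knockdown libraries, so that the groups lay far apart against a spread of under 4 CPM within each. The log2 fold change was 0.48 (SE 0.027, 95% interval 0.42 to 0.54), a rise of 39.5%, with an edgeR adjusted p of 1.87e-09. HLA-B, a classical chain that presents peptides to T cells, stood at 327 and 336 CPM in the controls against 394 and 402 CPM in the knockdown. Its groups did not overlap either, and its log2 fold change was 0.27 (SE 0.024, 95% interval 0.21 to 0.32), a rise of 20.2%, with an edgeR adjusted p of 3.70e-07. In bulk RNA a higher level in every cell and a larger number of cells at a high level cannot be told apart. HLA-C, the classical chain best known as a ligand of killer-cell immunoglobulin-like receptors, stood at 169.9 and 178 CPM in the controls against 185 and 179.8 CPM in the knockdown. Its groups lay side by side without overlapping, and its log2 fold change of 0.069 (95% interval -0.0023 to 0.14) had an edgeR adjusted p of 0.101. Without knockdown replicate 2 the adjusted p of HLA-C was 0.0376.

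The light chain B2M, which every class I heavy chain needs to fold, was not called. It stood at 734 and 769 CPM in the controls against 778 and 753 CPM in the knockdown, so the groups overlapped. Its log2 fold change was 0.027 (SE 0.025), and the 95% interval of -0.028 to 0.081 leaves out the changes measured for HLA-B and HLA-E. The ratio of each heavy chain to B2M within a library was therefore higher in the knockdown. HLA-E over B2M, per kilobase of exon, was 0.227 and 0.221 in the controls against 0.302 and 0.313 in the knockdown. HLA-B over B2M was 0.667 and 0.655 in the controls against 0.759 and 0.802 in the knockdown. HLA-C over B2M moved from 0.354 in both controls to 0.364 and 0.365. These ratios were not tested: an exact two-sided permutation test of a single value, 2 libraries against 2, cannot go below p = 0.333, and no model was fitted to ratios.

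Of the nonclassical chains outside the 9 genes, HLA-F and HLA-G had few counts. They read 5.62 ± 0.651 and 1.76 ± 0.296 CPM in the controls against 5.51 ± 0.0831 and 1.56 ± 0.552 CPM in the knockdown, and neither was called. HLA-B rose relative to HLA-C as well, since HLA-B over HLA-C per kilobase was higher in both knockdown libraries than in either control. In the reference transcripts, 2.5% of the 50-base windows of HLA-B, 6.8% of HLA-C and 5.1% of HLA-E occur in another gene, and the files do not say how reads of such stretches, or of the alleles this line carries, were assigned.

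TAP1 changed more than any other gene of the 9. It stood at 85.7 and 82.0 CPM in the controls against 129 and 138 CPM in the knockdown, a log2 fold change of 0.67 (SE 0.048, 95% interval 0.57 to 0.78), a rise of 59.6%, with an edgeR adjusted p of 2.17e-08. Its partner TAP2, which forms the same pump with it, stood at 137 and 130.1 CPM in the controls against 156 and 164 CPM in the knockdown. The log2 fold change of TAP2 was 0.26 (SE 0.040, 95% interval 0.18 to 0.35), with an edgeR adjusted p of 6.03e-05. Both transporter genes were higher in both knockdown libraries than in either control, and the intervals of their changes do not meet. The ratio of TAP1 to TAP2 per kilobase was 1.30 and 1.32 in the controls against 1.73 and 1.76 in the knockdown. Most of the TAP2 transcript, 80.2% of its 50-base windows, also lies in the gene model AL669918.1 of the GENCODE 29 annotation, which is no row of the count table.

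The peptide loading machinery around the transporter split. Tapasin (TAPBP), which bridges TAP and the class I molecule, rose with TAP1, from 209 and 196 CPM in the controls to 270 and 286 CPM in the knockdown (log2 fold change 0.46, SE 0.034, edgeR adjusted p 4.52e-08). Of 10 tested genes of peptide loading and glycoprotein quality control, TAPBP was the 1 called higher, 5 were called lower and 4 were not called, and their median log2 fold change was -0.086. The shares were 10% and 50%, beside 25.1% and 24.9% of all tested genes. Without knockdown replicate 1, 2 of the 10 were called higher. The general chaperones fell: the thiol oxidoreductase PDIA3 (ERp57), which pairs with tapasin, from 732 ± 7.95 to 592 ± 15.0 CPM, and the lectin chaperone calreticulin (CALR) from 719 ± 11.6 to 601 ± 8.32 CPM. The glucosyltransferase UGGT1, which sends unfinished glycoproteins back to calreticulin, fell from 276 ± 5.57 to 230 ± 3.57 CPM. Their log2 fold changes were -0.31, -0.26 and -0.27. Calnexin (CANX), the membrane-bound lectin chaperone, and TAPBPL (TAPBPR), a tapasin relative that edits peptides, were the other 2 called lower, named after their values were seen, with log2 fold changes of -0.12 and -0.86. The loading partners of class I thus moved in both directions, as did genes over the whole table. Against a fold of 1.2 (edgeR glmTreat), TAPBP kept its call and 1 of the 5 lower calls was kept. PDIA3 (adjusted p 0.0511), CALR (0.721) and UGGT1 (0.596) were not called there.

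**Figure D2:**
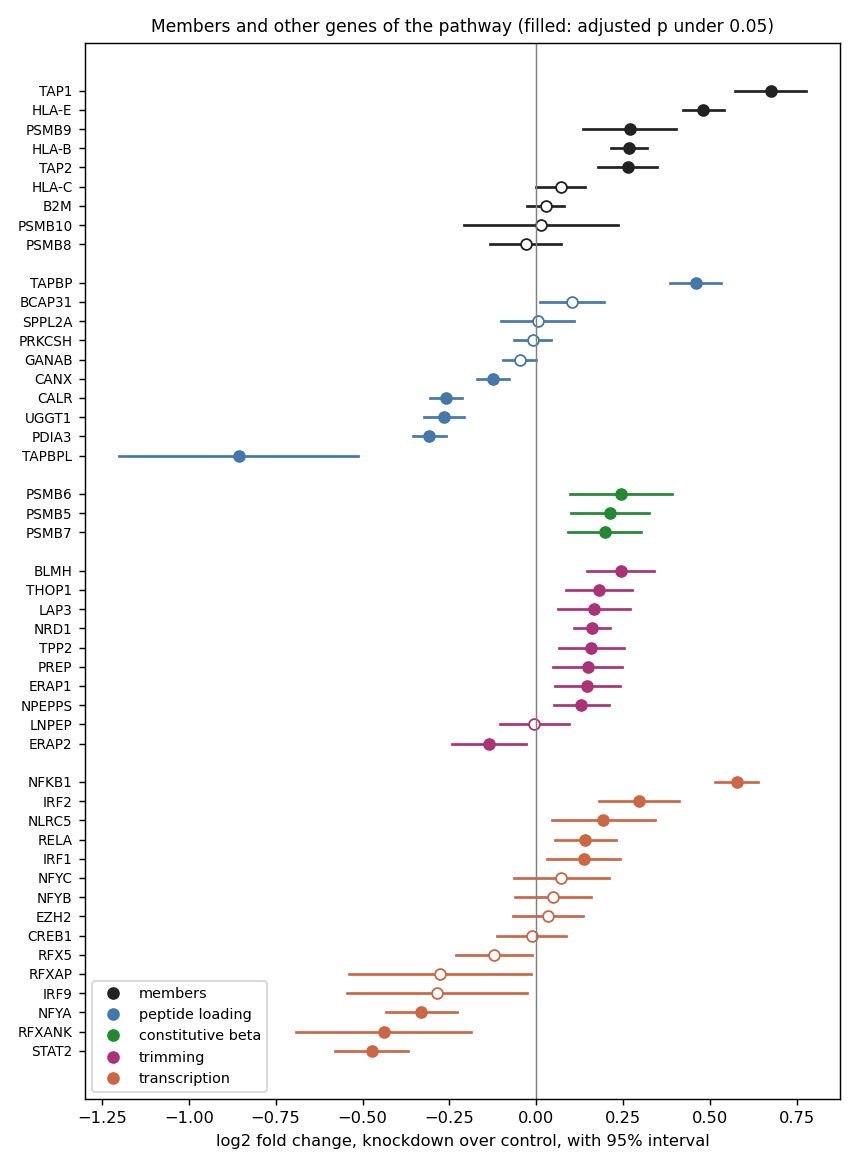
Log2 fold change of each gene, knockdown over control, with its 95% interval, for the 9 genes and for 4 further lists: peptide loading, the constitutive beta subunits, peptide trimming and transcription of class I genes, of which the genes reported here are drawn. Filled points have an edgeR adjusted p under 0.05. TAP1 (0.67), HLA-E (0.48) and TAPBP (0.46) stand to the right, TAPBPL (-0.86), STAT2 (-0.47) and most ER chaperones to the left.

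Of the 3 immunoproteasome subunits, PSMB9 alone was called. PSMB9 (beta1i) stood at 26.2 and 28.9 CPM in the controls against 33.0 and 33.4 CPM in the knockdown, without overlap. Its log2 fold change was 0.27 (SE 0.063, 95% interval 0.13 to 0.40), a rise of 20.4%, and its edgeR adjusted p 0.00238, which became 0.0607 without control replicate 1 and 0.0641 in DESeq2. PSMB8 (beta5i) read 74.0 and 74.7 CPM in the controls against 73.2 and 72.4 CPM in the knockdown, a log2 fold change of -0.031 (95% interval -0.13 to 0.071) with an edgeR adjusted p of 0.618. Both knockdown values of PSMB8 lay below both control values, by less than 4% of the level. PSMB10 (beta2i), the least abundant of the 9 genes, read 12.5 and 12.8 CPM in the controls against 13.1 and 12.5 CPM in the knockdown. Its log2 fold change was 0.013 (95% interval -0.21 to 0.23, edgeR adjusted p 0.929), at 193 to 224 counts a library. The 95% interval of PSMB9 lies above that of PSMB8 but overlaps that of PSMB10, so the changes of PSMB9 and PSMB10 were not separated. A share of 38.9% of the 50-base windows of PSMB10 also lies in the model AC040162.1, which is no row of the table.

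The constitutive subunits that they replace were all 3 called higher, beside 25.1% of all tested genes. PSMB5 rose from 71.0 ± 2.05 to 82.2 ± 3.72 CPM, PSMB6 from 26.1 ± 2.01 to 30.9 ± 1.42 CPM and PSMB7 from 77.0 ± 1.72 to 88.3 ± 1.51 CPM. Their log2 fold changes were 0.21, 0.24 and 0.20, with edgeR adjusted p of 0.00344, 0.00851 and 0.00379. Leaving out control replicate 1 kept 1 of the 3 calls, with an adjusted p of 0.0594 for PSMB5 and 0.142 for PSMB6, and PSMB6 also lost its call without knockdown replicate 1 (0.0659). The ratio of an immune subunit to the one it replaces, per kilobase, therefore did not move alike in the 3 positions. PSMB8 over PSMB5 went from 1.01 and 0.974 in the controls to 0.815 and 0.860 in the knockdown. PSMB10 over PSMB7 went from 0.133 and 0.132 to 0.118 and 0.116. PSMB9 over PSMB6 overlapped, at 0.999 ± 0.0070 in the controls against 0.979 and 1.06 in the knockdown. The ratios of the groups thus did not overlap at 2 positions, where they were lower in the knockdown, and overlapped at the beta1 position. These ratios were not tested. The 95% interval of the PSMB10 change (-0.21 to 0.23), at 193 to 224 counts a library, includes the PSMB7 change of 0.20.

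**Figure D3:**
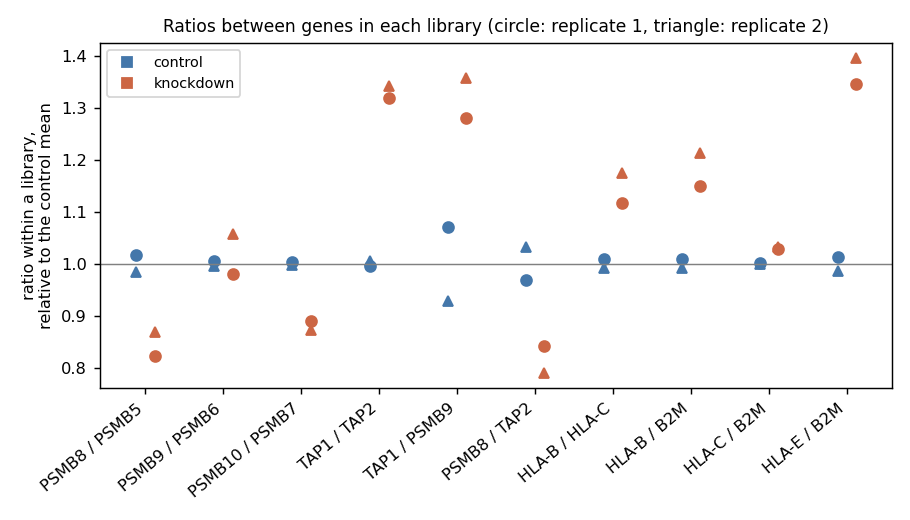
Ratio of the levels of 2 genes within each library, divided by the mean ratio of the 2 control libraries, with circles for replicate 1 and triangles for replicate 2. TAP1 over TAP2 and HLA-E over B2M lie above 1.3 in both knockdown libraries, PSMB8 over PSMB5 and PSMB10 over PSMB7 lie below 0.9, and PSMB9 over PSMB6 overlaps the controls.

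Other subunits and assembly factors of the 20S proteasome were called higher in 9 of 16 cases and lower in 3, with a median log2 fold change of 0.17. The shares were 56.2% and 18.8%, beside 25.1% and 24.9% of all tested genes. The alpha-ring subunits PSMA5 (68.1 ± 3.42 to 96.0 ± 3.29 CPM) and PSMA1 (104 ± 2.34 to 131 ± 2.41 CPM) and the beta-ring subunit PSMB1 (68.0 ± 1.93 to 88.5 ± 5.18 CPM) rose. The alpha-ring subunit PSMA4 fell from 87.8 ± 0.807 to 59.1 ± 2.02 CPM, a log2 fold change of -0.57 (edgeR adjusted p 2.18e-07), so the subunits of a single particle did not keep step. Of the 5 activators and inhibitors, PSME1, the PA28 alpha subunit that widens the gate for short peptides, was the 1 called higher (20%, beside 25.1% of all tested genes). PSME1 read 128 and 126 CPM in the controls against 142 and 141 CPM in the knockdown (edgeR adjusted p 0.00258). Its partner PSME2 read 70.0 ± 0.550 and 76.1 ± 2.27 CPM, with an edgeR adjusted p of 0.0524 and of 0.0241 without knockdown replicate 1.

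Peptidases that trim or destroy peptides on the way to class I moved mostly in the same direction. Of 10 tested, 8 were called higher, 1 lower and 1 was not called, with a median log2 fold change of 0.15. The shares were 80% and 10%, beside 25.1% and 24.9% of all tested genes. Their median absolute log2 fold change was 0.15, beside 0.22 over all tested genes. The changes were small. The metallopeptidase nardilysin (NRD1) rose from 321 ± 5.17 to 358 ± 4.71 CPM, the cytosolic aminopeptidase BLMH from 58.6 ± 1.04 to 69.3 ± 0.167 CPM, the oligopeptidase THOP1 from 56.2 ± 1.22 to 63.8 ± 0.450 CPM and the giant peptidase TPP2 from 100.3 ± 1.204 to 112 ± 2.85 CPM. Their log2 fold changes were 0.16, 0.24, 0.18 and 0.16. THOP1 had an adjusted p of 0.0529 without control replicate 2, and TPP2 had 0.0803 without control replicate 1 and 0.0518 without knockdown replicate 1. Within the endoplasmic reticulum the final trimming enzymes parted, a pair singled out after their values were seen. ERAP1 rose from 99.9 ± 2.63 to 111 ± 0.264 CPM (edgeR adjusted p 0.0114), and ERAP2 was the 1 called lower, from 83.4 ± 0.729 to 75.9 ± 1.76 CPM (edgeR adjusted p 0.0323). Leaving out 1 library gave 4 to 8 peptidases called higher and 0 to 1 called lower, with the fewest higher when control replicate 2 was left out, and DESeq2 called 3 higher. Library size alone gave 5 called higher, and glmTreat against a fold of 1.2 gave 0.

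The genes that control class I transcription were mixed. Of 16 tested, 5 were called higher, 4 lower and 7 were not called, with a median log2 fold change of 0.0095. These shares, 31.2% higher and 25% lower, were near the 25.1% and 24.9% of all tested genes. NFKB1, which encodes the p105 and p50 forms of NF-kB, rose from 174 ± 4.63 to 260 ± 2.80 CPM (log2 fold change 0.58, edgeR adjusted p 5.24e-10), and IRF2, which competes with IRF1 for the interferon element, rose from 30.7 ± 0.392 to 37.7 ± 1.11 CPM (0.30, edgeR adjusted p 3.40e-04). STAT2, a signal carrier of type I interferon, fell from 80.7 ± 2.43 to 58.1 ± 1.28 CPM (-0.47, edgeR adjusted p 1.38e-06), and NFYA, the subunit of NF-Y that contacts the CCAAT box, from 94.0 ± 0.524 to 74.7 ± 0.342 CPM (-0.33, edgeR adjusted p 3.81e-05). NLRC5, the class I coactivator, read 22.7 and 24.3 CPM in the controls against 26.5 and 27.1 CPM in the knockdown, with a log2 fold change of 0.19 and an edgeR adjusted p of 0.0319. IRF1, the interferon-induced activator of these promoters, read 40.2 and 41.8 CPM in the controls against 44.0 and 46.2 CPM in the knockdown (0.14, edgeR adjusted p 0.0308). Both calls were near the threshold. NLRC5 lost its call without control replicate 1 (0.189), knockdown replicate 1 (0.0647) or knockdown replicate 2 (0.102), and IRF1 without control replicate 1 (0.195), control replicate 2 (0.105) or knockdown replicate 2 (0.255). With library size as the single scaling, 2 genes of the list were called higher and 7 lower, and leaving out 1 library gave 2 to 4 higher and 3 to 6 lower. The promoter letters shown above stood in genes of both kinds. The kappa-B consensus was present in HLA-B and TAP1, which were called higher, and in HLA-C and B2M, which were not. Likewise GAAAGCGAA stood in TAP2, called higher, and in PSMB10, not called.

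Of the interferon genes, IFNG, IFNB1 and IFNL1 were looked at. IFNG and IFNL1 had 0 counts in all 4 libraries, where 3 counts would be 0.172 to 0.195 CPM, and IFNB1 had 1 count in a single library. Of 8 tested genes of interferon reception, 3 receptor chains were called higher and 1 lower (37.5% and 12.5%, beside 25.1% and 24.9% of all tested genes). The receptor chain IL10RB and the kinases JAK1, JAK2 and TYK2 were not called. IFNGR2, the signalling chain of the interferon gamma receptor, rose from 26.9 ± 0.0798 to 45.4 ± 0.438 CPM (log2 fold change 0.76, edgeR adjusted p 1.46e-08), and IFNAR2 of the type I receptor from 19.8 ± 1.36 to 28.8 ± 1.15 CPM (0.54, edgeR adjusted p 2.82e-05). IFNAR1, its other chain, fell from 73.7 ± 3.23 to 61.4 ± 2.65 CPM (-0.26, edgeR adjusted p 6.11e-04), and IFNGR1 rose from 76.9 ± 2.97 to 85.3 ± 0.325 CPM (0.15), with an edgeR adjusted p of 0.0225. IFNGR1 lost its call without control replicate 1 (0.121), with library size alone (0.0995) and in DESeq2 (0.103). Of 13 tested interferon-stimulated genes outside antigen processing, 0 were called higher, 4 lower and 9 were not called, with a median log2 fold change of 0.043. The shares were 0% and 30.8%, beside 25.1% and 24.9% of all tested genes. Only these 13 of the 20 listed genes passed the count filter. Their median absolute log2 fold change was 0.36, beside 0.22 over all tested genes. With genes of fractional counts left out, 2 of the list were called higher. The groups did not overlap in 8 of the 13, or 61.5%, beside 74.3% of all tested genes. Named after their values were seen, IFI6 (edgeR adjusted p 0.054) and GBP2 (0.0601) lay above both controls in the knockdown and IFI35 (0.0785) below, without a call. Not every uncalled gene without overlap is named here. BST2 (tetherin), which holds budding virus at the membrane, fell from 81.7 ± 0.682 to 58.1 ± 0.826 CPM (-0.49, edgeR adjusted p 6.45e-07). The other 3, IFI44L, GBP1 and IFI44, had log2 fold changes of -1.39, -0.36 and -0.56. Each was at 11.1 CPM or less in the knockdown. Leaving out 1 library gave 1 to 4 genes called lower, with 1 when control replicate 2 was left out (IFI44L 0.0894, GBP1 0.0812, IFI44 0.176), and 2 without knockdown replicate 2 (GBP1 0.0519, IFI44 0.0825). IFI44 was also not called without control replicate 1 (0.0675) or knockdown replicate 1 (0.0763). ISG15, a ubiquitin-like effector, and IFIT1, an RNA sensor, chosen here after their values were seen as familiar examples, read 6.93 ± 0.398 and 7.68 ± 0.974 CPM, and 0.968 ± 0.233 and 1.005 ± 0.139 CPM. IFIT1 had 14 to 19 counts a library, with an SE of 0.36 on its log2 fold change. Several other uncalled genes of the list also had few counts, where a moderate change could hardly be called.

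**Figure D4:**
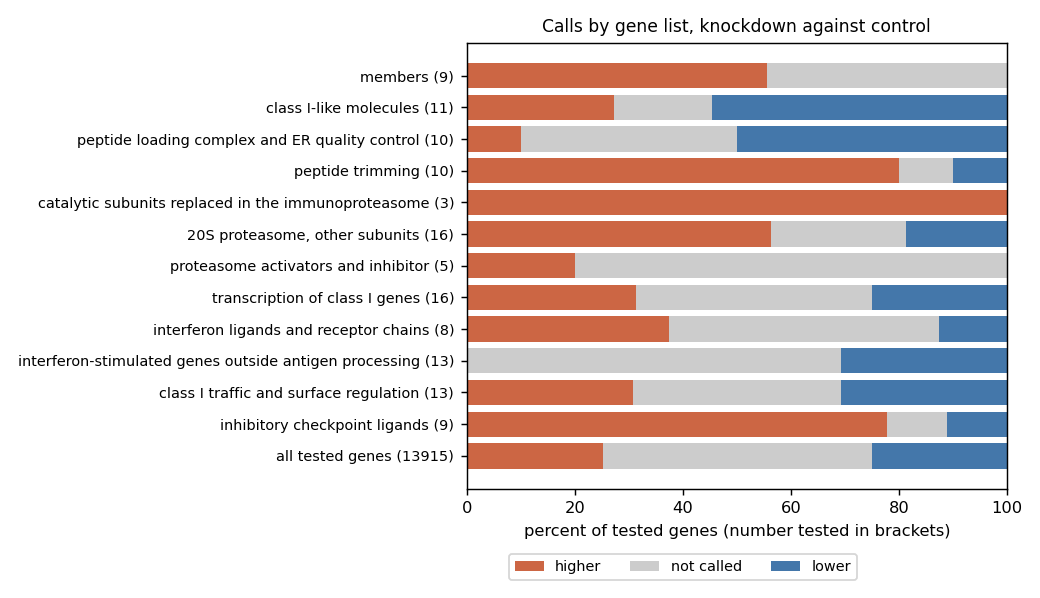
Share of the tested genes of each list that were called higher, not called or called lower in the knockdown, in percent, with the number tested in brackets and all tested genes in the bottom bar. The 9 genes show 55.6% higher and 0% lower, peptide trimming 80% higher, and interferon-stimulated genes outside antigen processing 0% higher and 30.8% lower, beside 25.1% higher and 24.9% lower of all tested genes.

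Surface molecules related to class I, and ligands that meet the same lymphocytes, were called in both directions. Of 11 tested class I-like genes, 3 were called higher and 6 lower, with a median log2 fold change of -0.73. The shares were 27.3% and 54.5%, beside 25.1% and 24.9% of all tested genes. MR1, which presents vitamin metabolites to MAIT cells, fell from 40.8 ± 2.36 to 18.8 ± 1.36 CPM (-1.12, edgeR adjusted p 5.02e-09). The stress ligands of the activating receptor NKG2D divided: MICA rose from 39.96 ± 0.564 to 53.1 ± 0.467 CPM (0.41) and MICB from 18.4 ± 1.52 to 28.7 ± 0.274 CPM (0.64), whereas ULBP1 fell from 16.4 ± 0.453 to 9.92 ± 0.351 CPM (-0.73). Of 9 tested inhibitory checkpoint ligands, 7 were called higher and 1 lower (77.8% and 11.1%), with a median log2 fold change of 0.47. NT5E (CD73), which makes adenosine, rose from 55.1 ± 1.68 to 139 ± 0.309 CPM (1.34, edgeR adjusted p 1.09e-11). PVR, a ligand of TIGIT, rose from 222 ± 1.61 to 308 ± 1.40 CPM (0.47), CD274 (PD-L1) from 7.09 ± 0.838 to 13.7 ± 1.76 CPM (0.95) and CD276 from 70.5 ± 0.992 to 85.3 ± 0.279 CPM (0.28). The 1 called lower, TNFRSF14, had 23 and 27 counts in the controls against 12 and 6 in the knockdown, and leaving out control replicate 1, control replicate 2 or knockdown replicate 2 ended its call.

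Genes that move class I molecules through the cell were called higher in 4 of 13 cases and lower in 4, with a median log2 fold change of 0.036. Each share was 30.8%, near the 25.1% higher and 24.9% lower of all tested genes. MARCH4, a membrane ubiquitin ligase known to take class I off the surface, rose from 10.1 ± 0.650 to 29.3 ± 1.47 CPM (log2 fold change 1.54, edgeR adjusted p 3.21e-09), the widest change of the list. EHD1, which recycles class I from endosomes, rose from 43.6 ± 0.706 to 64.9 ± 1.66 CPM (0.57), and B3GNT5, an enzyme of the glycosphingolipids that shield class I, from 80.8 ± 2.16 to 115 ± 5.32 CPM (0.51). SAR1A, a GTPase of export from the endoplasmic reticulum, fell from 136 ± 0.653 to 99.3 ± 4.84 CPM (-0.46). Surface class I protein was not measured in these libraries.

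Compared per kilobase of exon, so that long and short genes can be set side by side, B2M led the 9 genes at 316 CPM per kilobase in the controls against 322 in the knockdown. HLA-B followed at 209 and 251, HLA-C at 112 and 117 and HLA-E at 70.8 and 98.8. PSMB8 came next at 48.0 and 47.0. PSMB9 (29.9 ± 2.09) and TAP1 (28.4 ± 0.879) did not differ beyond their spread in the controls, whereas in the knockdown TAP1 (45.2 ± 2.18) lay above PSMB9 (36.0 ± 0.255) and within its spread of PSMB8. TAP2 stood at 21.7 and 26.0, and PSMB10 was lowest at 10.4 and 10.5. The place of TAP2 depends on the length used. Divided by its principal transcript of 2497 bases in place of the 6175 bases of all its exons, TAP2 was at 53.5 in the controls and 64.2 in the knockdown, above TAP1. The places of PSMB8 and PSMB9 beside TAP1, whose length is the same either way, depend on it too. By principal transcript PSMB9 stood at 35.2 in the controls, above TAP1 at 28.4, and at 42.4 in the knockdown, below TAP1 at 45.2, and PSMB8 stood at 64.7 in the knockdown.

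**Figure D5:**
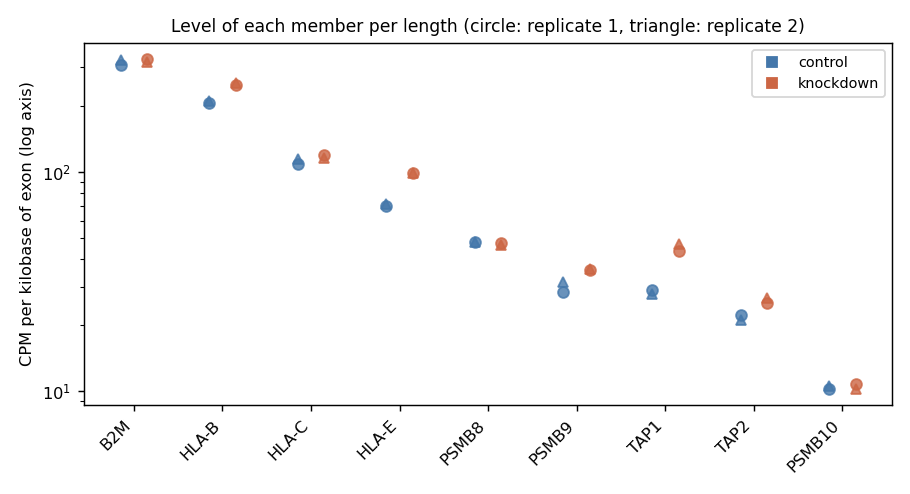
Level of each of the 9 genes per kilobase of exon (CPM per kilobase, log axis), with control libraries in blue, knockdown libraries in red, circles for replicate 1 and triangles for replicate 2. B2M is highest at 316 in the controls and PSMB10 lowest at 10.4, and TAP1 lies beside PSMB9 in the controls and above it in the knockdown, at these exon lengths.

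TAP2, PSMB8, TAP1 and PSMB9 are neighbours in that order in the class II part of the MHC on chromosome 6, with HLA-DOB beside TAP2 and HLA-DMB beside PSMB9, per the RefSeq gene order. Their changes were not alike along this row: 0.26 for TAP2, -0.031 for PSMB8, 0.67 for TAP1 and 0.27 for PSMB9. PSMB8 stands between both transporter genes and was not called, and PSMB8 over TAP2 per kilobase went from 2.15 and 2.29 in the controls to 1.87 and 1.75 in the knockdown. TAP1 and PSMB9 are read outward from a shared stretch, and TAP1 over PSMB9 went from 1.02 and 0.884 to 1.22 and 1.29. The class II gene HLA-DOB, an inhibitor of peptide exchange, went from 8.95 ± 0.577 to 12.1 ± 0.660 CPM, with an edgeR adjusted p of 0.00639 and of 0.0819 without control replicate 2, whereas HLA-DMB had 0 to 2 counts. HLA-C and HLA-B are also adjacent, and HLA-B over HLA-C went from 1.88 and 1.85 to 2.09 and 2.19. The antisense gene PSMB8-AS1 overlaps PSMB8 and TAP1, is no row of the table, and the sources used here do not say whether the counting used strand.

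By distance between centred log2 CPM over the 4 libraries, links from each gene to its nearest among the 9 joined them into 3 sets. Distances between the sets were not compared, and the link of HLA-E with TAP1 was the longest. HLA-E and TAP1 were each other's nearest (distance 0.214), HLA-B and PSMB9 were each other's nearest (0.0725) with TAP2 closest to HLA-B (0.0894), and B2M and PSMB10 were each other's nearest (0.0281) with HLA-C closest to B2M (0.0432) and PSMB8 to PSMB10 (0.0577). Over 10848 tested genes with a mean of at least 5 CPM, the genes nearest to B2M were EMR2 (0.00517), an adhesion receptor, VDAC3 (0.0110), a mitochondrial porin, and WDR13 (0.0127), a WD-repeat protein. With 4 libraries in 2 groups, such distances hold little beyond the change between the groups and the gap between replicates.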

How the data were processed

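Estimated counts of 4 libraries, by gene symbol and not normalized, are in 1 table that the authors deposited. Reads were aligned with STAR to GRCh37, per the submitters' processing notes. The sources used here name neither the counting program nor its handling of strand. Expected counts were rounded; values were more than 0.01 from whole in 591 genes and in 0 of the 9. Columns were matched to samples by name.

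Of 18912 genes with a count, 13915 passed filterByExpr (minimum count 10) and were tested with edgeR 4.0.16 in R 4.3.3 (TMM scaling, glmQLFit and glmQLFTest, group as the single term, two-sided, Benjamini-Hochberg over all tested genes). Alternatives were other scalings and filters, DESeq2 1.42.0, limma-voom (limma 3.58.1), glmTreat, leaving out each library or the fractional genes, and a block for the replicate number. The test was tried on simulated counts. Depth was 15641296 to 17197715 counts, where a floor of 3 counts is 0.172 to 0.195 CPM; floors cover counting error only. The chi-square per degree of freedom was 1.84 between controls and 1.59 between knockdowns, above sampling noise.

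Members and gene lists were chosen with earlier results of these data known. The text names the 9 genes, SPEN, TAPBP, NLRC5, IRF1, PSMB5, PSMB6, PSMB7, PSME1, PSME2, in each list up to 4 called genes by smallest adjusted p, the nearest genes by centred log2 CPM, and genes marked as named after their values were seen. Some genes of the lists, and a planned sum over heavy chain genes, are not reported here. Of the marker lists, class II genes (12, with HLA-DRA, HLA-DRB1, HLA-DRB5, HLA-DQA1 and HLA-DQB1 at 0) summed to 10.8 to 14.5 CPM, and 9 epithelial genes to 313 to 343 CPM, with KRT8 called higher and GATA3 lower. Of the 8 mesenchymal markers 6 were called higher, led by VIM, AXL, SPARC and FN1. Of the leukocyte markers LAPTM5 was lower, and ITGAM had 0 counts in both controls and 10 and 19 in the knockdown. Exon lengths came from GENCODE 29 and promoters from RefSeq, both on GRCh38.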

Additional observations from a re-analysis of the deposited data

How the results depend on the processing

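Counts of the 9 genes called higher ranged from 4 to 6 when 1 library was left out and were 0 lower throughout. The 2 controls and 2 knockdowns limit every test, and depth limits PSMB10 most. Against a fold of 1.2 (edgeR glmTreat), 2 of the 9 were called higher (HLA-E and TAP1), and HLA-B (adjusted p 0.592), TAP2 (0.648) and PSMB9 (0.602) were not. The direction of B2M reversed to -0.019 with library size alone and to -0.0073 without control replicate 1, and that of PSMB10 to -0.032 with library size alone, to -0.0051 without control replicate 1 and to -0.020 without knockdown replicate 1, in every case without a call; with 1 library left out the highest values were 0.058 for B2M and 0.046 for PSMB10. Leaving out 1 library gave -0.79 to -0.77 for SPEN on the log2 scale, and its call was kept. Over all genes, 6970 were called, with 4593 in DESeq2, 2521 in glmTreat and 5047 to 6342 with 1 library left out. With library size alone the calls split into 2966 higher and 4101 lower and the median log2 fold change moved to -0.044.

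Replicate numbers share no stated source: replicate differences of controls and knockdowns correlated at 0.191 across genes, in a single comparison. With the replicate number as a block, 5 of the 9 genes were called higher and 0 lower, and 7211 genes in all; no call among the 9 changed, whereas IRF1 (adjusted p 0.0549) lost its call and PSME2 (0.0352) gained one. Of 51 other named and called genes, 40 kept their call under every alternative but glmTreat, and 27 kept it there; the cause of the losses was not tested.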
